A study of Apis mellifera with 6 samples.

Results

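The antimicrobial peptide genes of the honeybee were examined in the antennae of adult worker bees. They were chosen by name, as the 2 defensin genes *Def1* and *Def2*, the apidaecin gene *Apid1* and the genes of abaecin (LOC406144) and hymenoptaecin (LOC406142). Of these 5 genes, 3 were listed among the 9362 genes with a level, namely *Def1*, *Def2* and *Apid1*. LOC406144 and LOC406142 were not analysed here.

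There were 6 antennal RNA libraries, each from a pool of 5 bees, with 3 libraries of *dsx* stop/stop mutants and 3 of wt (WT) bees. The *dsx* stop/stop worker bees were mutated as eggs with CRISPR-Cas9, each bee independently. Both alleles of *dsx* carried mutations that lead to an early stop codon. The paper places the mutations before the DNA binding domain. The gene *dsx* encodes the transcription factor doublesex, and the study asked whether its loss changes transcription in the antenna. The age of the bees at RNA extraction is not given in the sources used here. The level used here is the authors' mean of normalized read counts over all 6 libraries of both genotypes, named the base mean. It gives 1 value per gene, so the levels below are those of the antenna of both genotypes together. No genotype difference, no value per pool and no error between pools can be drawn from it, and the change of *dsx* itself was not used as a check of the labels. Its base mean was 1278 normalized counts.

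Antimicrobial peptides are short secreted proteins of innate immunity that damage or enter microbes. In insects, mainly in *Drosophila melanogaster*, their genes are known as targets of the Toll and Imd pathways, in which recognition proteins bind bacterial or fungal cell wall components and NF-κB transcription factors switch on the peptide genes. The fat body and the haemocytes are known as major sources, and surface epithelia can make them too. Defensins are peptides held together by disulfide bonds, apidaecins and abaecin are rich in proline, and hymenoptaecin is rich in glycine.

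The 3 listed peptide genes fell into 2 very different ranges. *Def1* and *Apid1* lay near the middle of the listed genes, and *Def2* lay near the bottom. The median base mean over the 9362 genes was 275 normalized counts, with a lowest value of 0.0705 and a highest value of 436377.

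*Def1* encodes defensin-1, the defensin also known from royal jelly. It lies on linkage group LG6 from 8673495 to 8675023 in the assembly Amel_HAv3.1 and is annotated as a protein-coding gene. Its base mean was 396 normalized counts, which is 1.44 times the median of the listed genes. In the order of base means it took rank 3902 from the top, and 58.3% of the listed genes lay below it. By read count over the 6 libraries together, *Def1* was thus neither rare nor abundant among the listed genes, and its level in each pool is not known.

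*Apid1* encodes an apidaecin precursor, from which several copies of a short proline-rich peptide are cut. It lies on LG16 from 4518604 to 4520315, and the annotation gives Apid14 and Apid22 as its synonyms. Its base mean was 368 normalized counts, with rank 4064 and 56.6% of the listed genes below it. Apidaecin sequences are repetitive and exist in near-identical copies, so reads could be split between copies or joined to this entry, and the level of *Apid1* is uncertain to that extent.

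*Def2* encodes defensin-2, the second defensin of the honeybee. It lies on LG16 from 5139659 to 5140578, inside the span of the protein-coding gene LOC552490, which runs from 5106358 to 5145323. The base mean of *Def2* was 3.07 normalized counts, which is 0.0111 times the median of the listed genes. Its rank was 8580, and only 8.35% of the listed genes lay below it. LOC552490 had a base mean of 230 normalized counts. Whether reads were shared between the overlapping genes was not tested.

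**Figure D1:**
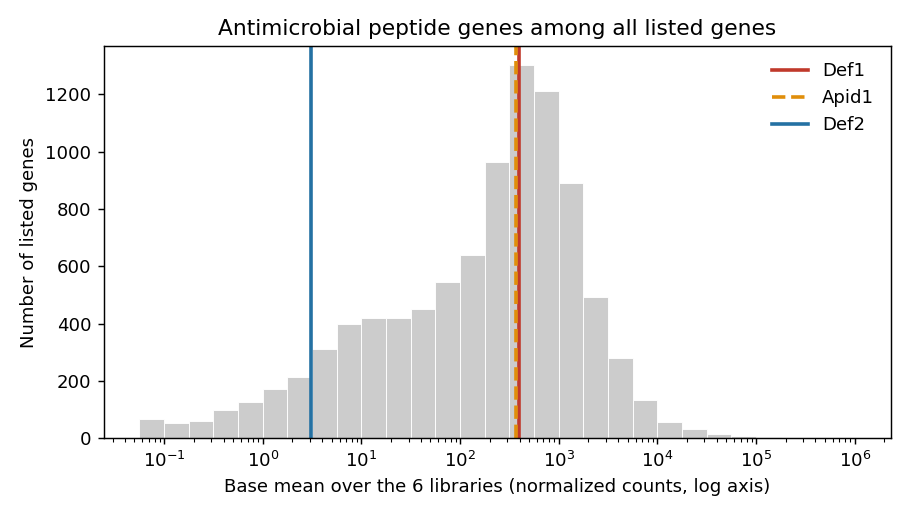
The bars count the 9362 listed genes by base mean over the 6 libraries (normalized counts, log axis), and the vertical lines mark the 3 peptide genes. *Def1* (396) and *Apid1* (368) lie close together near the peak of the distribution, and *Def2* (3.07) lies in its lower tail.

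A base mean of counts that are not scaled by length grows with the length of a transcript as well as with its abundance. The paper states that a transcripts-per-kilobase-million step was applied to the estimated counts, which scales by length. If the base mean holds that scaling, the levels per kilobase given here correct for length more than once. Because transcript lengths were not at hand, levels were compared between genes per kilobase of gene span, a length that includes the introns. On this scale *Def1* reached 259 and *Apid1* 215 normalized counts per kilobase, and *Def2* reached 3.33. The median of all genes with a span was 51.6 normalized counts per kilobase. The share of genes below each peptide gene was then 83.0% for *Def1*, 79.4% for *Apid1* and 20.6% for *Def2*. All 3 genes are short, with spans of 1529, 1712 and 920 bp, and each therefore ranked higher per kilobase than by read count. Genes with long introns are set too low on this scale, so these ranks are approximate.

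Per kilobase of gene span, the level of *Def1* was 77.8 times that of *Def2*, and the level of *Apid1* was 64.6 times that of *Def2*. *Def1* stood at 1.20 times *Apid1* per kilobase and at 1.08 times by base mean. With no error for either level, it cannot be said whether *Def1* and *Apid1* differ. The 2 defensin genes lay much further apart on both scales, and by base mean *Def1* stood at 129 times *Def2*. Their levels have no error between pools either, so whether this gap holds in each pool was not tested.

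Few reads lie behind the level of *Def2*. The smallest base means show what 1 read is worth, because 93 genes share 6 values that correspond to 1 read in 1 of the 6 libraries, from 0.0705 normalized counts in the library with the largest size factor to 0.825 in the library with the smallest. Divided by these values, the base mean of *Def2* stands for between about 3.72 reads, if all came from the library with the smallest size factor, and about 43.5 reads, if all came from the one with the largest. For *Def1* the same limits are about 480 and 5621 reads, and for *Apid1* about 446 and 5226 reads. These limits cover all 6 libraries, and the lower limits of *Def1* and *Apid1* exceed the upper limit of *Def2*. The limits are approximate, since the values of genes read in several libraries departed slightly from sums of the 6 values. The highest of the 6 size factors was 11.7 times the lowest, and they were not assigned to a genotype. Size factors are not read totals, and the total reads of each library were not analysed here. This spread, on which the read limits rest, was therefore not checked against read totals. The range of mapped reads that the paper states is narrower than this spread. The reason for the gap was not found, so the read limits are uncertain to that extent.

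By read count, the 4 listed genes of immune recognition and signalling lay above all 3 peptide genes. A list of 58 names of recognition, signalling and effector genes matched 9 genes in the annotation by symbol or synonym, and 4 of these were listed. The 4 genes stand for themselves and not for the pathways as a whole. Their median base mean was 1651 normalized counts, against 275 for all listed genes. All 4 are protein-coding, while the listed genes also include others. Among the 7610 protein-coding genes, the share below each of the 4 ran from 57.4% to 92.6%. *B-gluc1*, a recognition protein gene of the glucan-binding family that binds cell walls of microbes, had a base mean of 2881 normalized counts. *Dl*, the dorsal gene, encodes an NF-κB transcription factor of the Toll pathway, and it had a base mean of 2667 normalized counts. The other listed gene of the Toll pathway list, with gene ID 410902 and annotated on LG2 from 4677112 to 4681224, encodes a receptor of the Toll family, and it had a base mean of 517 normalized counts. *Imd*, the adaptor that gives the Imd pathway its name, had a base mean of 634 normalized counts.

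Per kilobase of gene span the order was different. *B-gluc1* had the highest value of the immune genes, with 571 normalized counts per kilobase. It was followed by *Def1* with 259, *Apid1* with 215, *Imd* with 212, *Dl* with 209 and the Toll family receptor gene with 126. *Apid1*, *Imd* and *Dl* were thus within a narrow range on this scale, and *Def2* stood far below every listed immune gene on both scales. The span of *Dl*, 12752 bp, was the longest of these genes, and how much of each span is intron was not determined here. The other 5 annotated genes of the list, which are *PGRP-S3*, *Pgrp-s2*, *cact1*, *PPO* and *Tsf1*, were not analysed here.

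The listed markers of the fat body, a tissue known to make antimicrobial peptides, were low, and no haemocyte marker was among the genes described here. Of the fat body markers, the hexamerin genes, which encode storage proteins made by the fat body mainly in larvae, were listed 4 of 4. Their base means were 32.6 normalized counts for *Hex70a*, 27.3 for *Hex110*, 19.2 for *HEX70b* and 1.22 for *Hex70c*. Each lay below *Def1* and *Apid1* on both scales, and *Hex70c* also lay below *Def2*. The fat body marker *Vg*, which is more telling in adult worker bees, and the haemocyte marker *PPO* were not analysed here. The part of fat body or haemocytes in the levels of the peptide genes was therefore not tested, and in RNA from a whole organ a low level in all cells cannot be told apart from a high level in few cells.

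Of 59 annotated chemosensory genes with a numbered symbol, 6 were listed. They did not test the labelled tissue, since the most abundant of them are not particular to antennae. *CSP1* and *CSP3*, which encode small soluble proteins that are abundant in antennae but not particular to them, had base means of 58480 and 48898 normalized counts and took ranks 11 and 16 of all listed genes. *CSP4*, *CSP6* and *CSP2* had base means of 2303, 294 and 114 normalized counts, and the gustatory receptor gene *Gr10* had 60.5. The odorant receptor genes with a numbered symbol were not analysed here. The base means of *Def1* and *Apid1* lay between those of *CSP4* and *CSP6*.

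**Figure D2:**
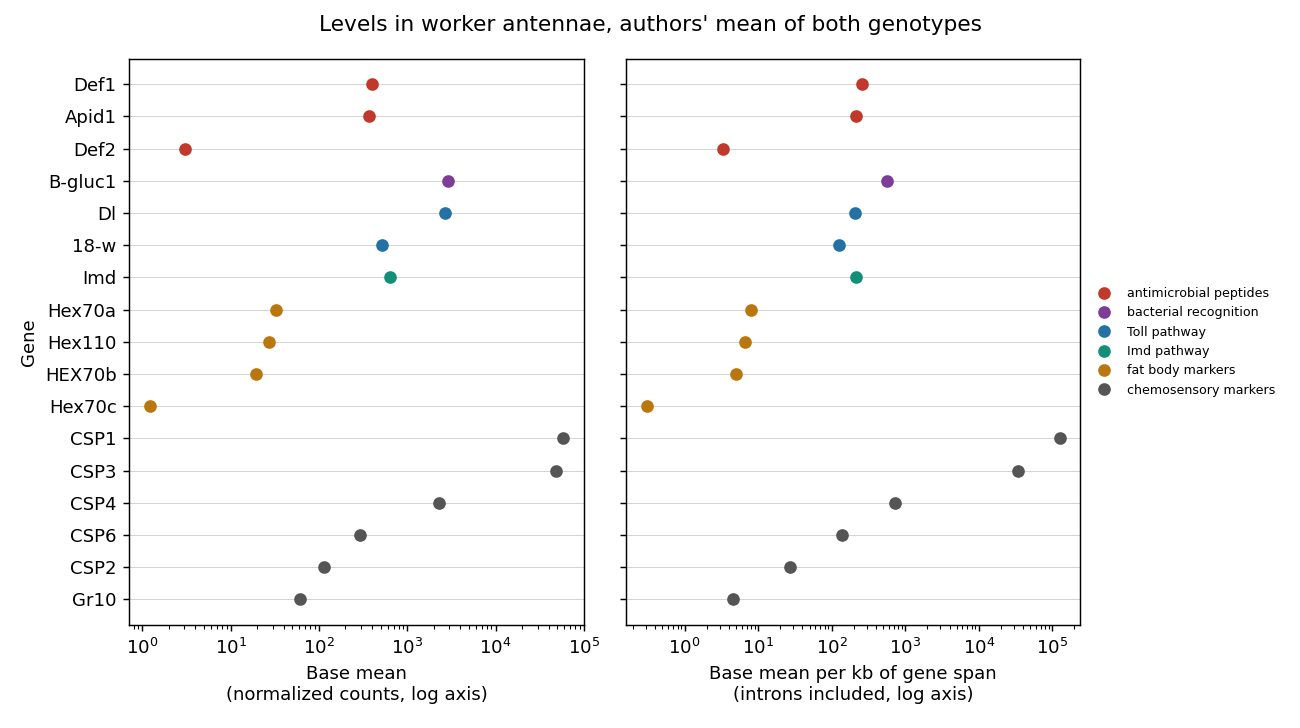
Each point is the authors' mean over the 6 libraries of 1 gene, as base mean (left, normalized counts) and per kilobase of gene span (right, introns included), both on log axes, with colours for the gene lists. *Def1* and *Apid1* lie above all 4 hexamerin genes and below *B-gluc1* on both scales, and *Def2* lies below all other listed immune genes.

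The genes next to the peptide genes were listed at a wide range of levels. Of the 5 listed genes nearest to *Apid1*, all within 5984 bp, the base means ran from 12.9 to 418 normalized counts with a median of 175. *Apid1* therefore lay inside the range of its neighbours and above their median. Around *Def1* the 5 nearest listed genes all lay on the side of lower coordinates, at distances from 2987 to 41110 bp. Their base means ran from 34.6 to 16858 normalized counts with a median of 1346. The highest was *Cat*, the gene of the antioxidant enzyme catalase, which is also the nearest listed gene to *Def1*. The 5 listed genes nearest to *Def2*, at distances of up to 32716 bp, had base means from 7.10 to 11676 normalized counts with a median of 230, so *Def2* lay below every one of them.

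**Figure D3:**
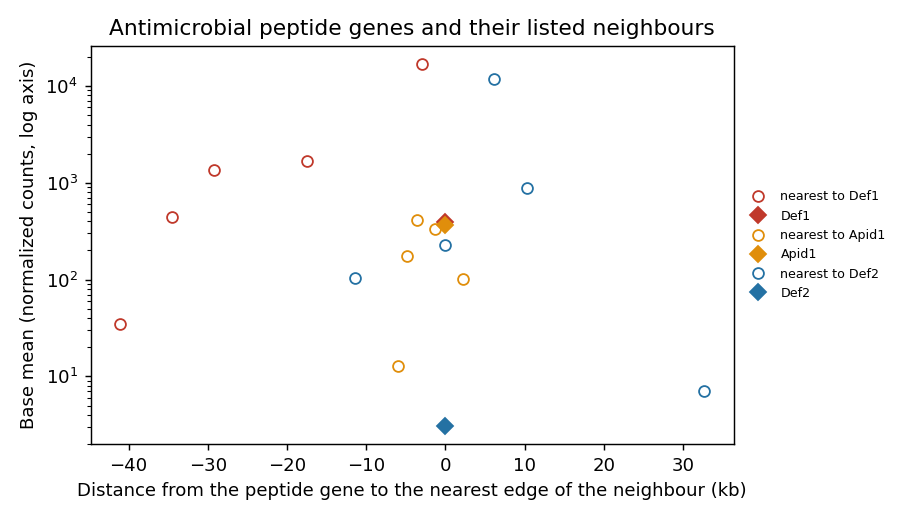
The filled diamonds at distance 0 are the 3 peptide genes and the open circles the 5 nearest listed genes of each, by distance between gene edges (kb) and base mean (normalized counts, log axis). *Apid1* (368) lies within the values of its neighbours, *Def1* (396) lies below their median of 1346, and *Def2* (3.07) lies below all of its neighbours, of which the one at distance 0 is the overlapping gene LOC552490.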

How the data were processed

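RNA extracts of antennae from 5 bees were pooled for each library, and libraries of mRNA were sequenced as single reads of 150 bp. The authors mapped the reads to the transcriptome of Amel_HAv3.1 with kallisto and compared the genotypes with DESeq2. No version of either is given in the sources used here. The deposited table gives for each gene the authors' base mean, with decimal commas read as points. It is taken here as a mean over the 6 libraries of counts divided by size factors. The other 6 columns of the table hold the authors' comparison of the genotypes, namely fold changes on the log2 scale with their errors and Wald statistics, and p-values. They were not used, so the genotypes were not compared, no test was run and no library could be left out.

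Computed here were ranks, the share of genes with a lower level, levels per kilobase of gene span, ratios and the 1-read values. These values are base means under 1 that are shared by at least 3 genes and are no sums of smaller such values. They were used because exactly 6 were found whose size factors have a geometric mean near 1. Gene positions come from the RefSeq annotation of Amel_HAv3.1, in which 9361 of the 9362 IDs matched a symbol. Named are the peptide genes, the listed genes of the immune and marker lists, *dsx*, and genes among the 5 nearest to each peptide gene. The members and lists were chosen with earlier results of these data known. The calculations used Python 3.11.15, numpy 2.4.6, pandas 2.3.3, scipy 1.17.1 and matplotlib 3.10.9.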

Additional observations from a re-analysis of the deposited data

How the results depend on the processing

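The alternatives for the peptide genes were chosen after seeing the data. The share of genes below *Def1* was 58.3% by base mean over all listed genes, 50.4% over the 7862 genes whose base mean reached 10, 49.6% over the 7610 protein-coding genes and 83.0% per kilobase of gene span. For *Apid1* these shares were 56.6%, 48.3%, 47.5% and 79.4%. For *Def2* they were 8.35%, 0%, 4.22% and 20.6%, of which the 0% was fixed by the limit, since *Def2* itself lies under it. Without length scaling, the ratio of *Def1* to *Def2* was 129 in place of 77.8, that of *Apid1* to *Def2* was 120 in place of 64.6, and that of *Def1* to *Apid1* was 1.08 in place of 1.20. The order of the 3 genes was *Def1*, *Apid1*, *Def2* by base mean and per kilobase of gene span, and the other settings change only the genes they are set among. For the 4 immune genes, with a median of 1651 normalized counts, matching by symbol only and the limit of 10 removed no gene, so these settings tested nothing.

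No paired analysis was possible because the base mean is 1 value per gene over both genotypes. For the same reason no library was left out. Levels per kilobase of coding length, protein features and promoter motifs were planned and not run, because coding lengths and sequences were not used here. The planned values for LOC406144 and LOC406142 were not computed.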
